A study of Arabidopsis thaliana with 6 samples.

Results

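The 6 genes AT3G23550, AT4G38540, AT2G05540, AT3G19550, AT1G49500 and AT5G58570 are little-studied Arabidopsis thaliana loci whose transcripts were more abundant in leaves of the des1-1 mutant than in wild-type leaves. They were chosen by that measured difference in these same 6 arrays, so the genotype values of these genes are given as a description, with errors and without a test. Each locus had 1 probe set carrying that gene alone, which gave 6 of 13513 probe sets with 1 named gene and 6 of the 22746 probe sets tested in all. The study compared leaves of 3-week-old plants of the accession Col-0 (wild type) with those of des1-1, a mutant from the SALK insertion collection in the gene of an O-acetylserine(thiol)lyase homolog, with 3 biological replicates of each genotype on Affymetrix ATH1 arrays. Both genotypes were grown in soil with nutrient solution under long days, no treatment was given, and des1-1 is a single mutant line. The number of plants behind each sample is not given in the labels.

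The reference gene table lists all 6 loci as protein-coding and gives them no name beyond the locus. AT3G23550 belongs to the MATE family, membrane carriers that use an ion gradient to move organic compounds out of the cytoplasm. Plant members carry flavonoids, organic acids, hormones and defence compounds. AT4G38540 belongs to the FAD-dependent monooxygenases, enzymes that insert an oxygen atom into an organic substrate, and its own substrate is not stated here. AT2G05540 lies in a run of genes for glycine-rich proteins on chromosome 2, a class that includes cell-wall proteins and that counts GRP-3, the gene next but 1 to it, among its members. No role is given here for AT3G19550, AT1G49500 and AT5G58570.

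The array medians lay between 5.78 and 5.81 and the lower quartiles between 4.69 and 4.78 on the log2 scale. A gene counts as measured here if a probe set carries that gene alone in the annotation used. Other genes may still have signal among the probe sets with several genes or without a name. Of the leaf markers, 4 of 11 were measured, and their wild-type means ran from 12.41 to 14.08. The root markers, 3 of 4 measured, had wild-type means of 4.78 to 5.54, and 0 of 4 flower markers were measured. No leaf or root marker passed the genotype test, which called 0.387% of all probe sets. PRK among the leaf markers and GH9C1 among the root markers lay wholly lower in des1-1, as did 8.66% of all probe sets. Markers this few cannot show whether the tissue make-up was the same. Wild type 2 stood apart in its 25S ribosomal RNA control, at 10.2 against 5.49 to 6.20 elsewhere. Of the RNA quality controls, the 3 prime minus 5 prime signal of GAPDH in 1 set of control probes ran from 0.80 to 1.26 in the wild type and from 0.86 to 1.1 in des1-1. In the other GAPDH set it ran from -0.74 to -0.65 in the wild type and from -0.57 to -0.32 in des1-1, without overlap. Both actin sets overlapped between genotypes. The first ran from 2.87 to 3.51 in the wild type and from 2.71 to 3.36 in des1-1. The second ran from 1.09 to 1.43 and from 1.24 to 1.4. The part of these array differences in the values below was not tested. DES1 itself was not analysed here, so the genotype labels were not checked against its transcript.

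The MATE carrier gene AT3G23550 read 7.63, 7.47 and 7.65 on wild-type arrays 1 to 3 and 8.60, 8.47 and 8.46 on des1-1 arrays 1 to 3, in log2 units of signal. The genotypes did not overlap, and the lowest des1-1 array stood 0.81 above the highest wild-type array. Mean signals were 7.58 ± 0.10 for wild type and 8.51 ± 0.08 for des1-1 (SD, n = 3 each), a difference of 0.93 ± 0.08 (SE of the fit) or 1.90-fold. In leaf samples made of many cells, more cells of a type and more RNA per cell cannot be told apart, here and for the genes that follow.

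The monooxygenase gene AT4G38540 read 7.11, 6.96 and 7.07 in the wild type and 8.22, 7.98 and 7.82 in des1-1. Its des1-1 arrays were the most spread of the 6 genes, over a range of 0.40, yet the lowest of them stood 0.71 above the highest wild-type array. The difference was 0.96 ± 0.11 (SE), or 1.95-fold. The glycine-rich protein gene AT2G05540 read 5.90, 5.60 and 6.24 in the wild type and 7.66, 7.50 and 7.42 in des1-1. Here the wild type was the more variable genotype, with an SD of 0.32 against 0.12 in des1-1. The difference of 1.61 ± 0.15 (SE), or 3.06-fold, was the largest of the 6.

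Of the genes with no role given, AT3G19550 read 5.76, 5.52 and 5.51 in the wild type and 6.84, 6.89 and 7.07 in des1-1. The groups were separated by 1.08, and the difference was 1.34 ± 0.10 (SE), or 2.53-fold. AT1G49500 read 8.38, 8.29 and 8.34 in the wild type and 9.46, 9.54 and 9.42 in des1-1. Its arrays agreed closely within genotypes, within 0.09 and 0.12, and the difference was 1.14 ± 0.07 (SE), or 2.20-fold. AT5G58570 read 8.37, 8.42 and 8.41 in the wild type and 9.36, 9.17 and 9.40 in des1-1. Its wild-type arrays lay within 0.05 of each other, and the difference was 0.91 ± 0.08 (SE), or 1.88-fold.

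**Figure D1:**
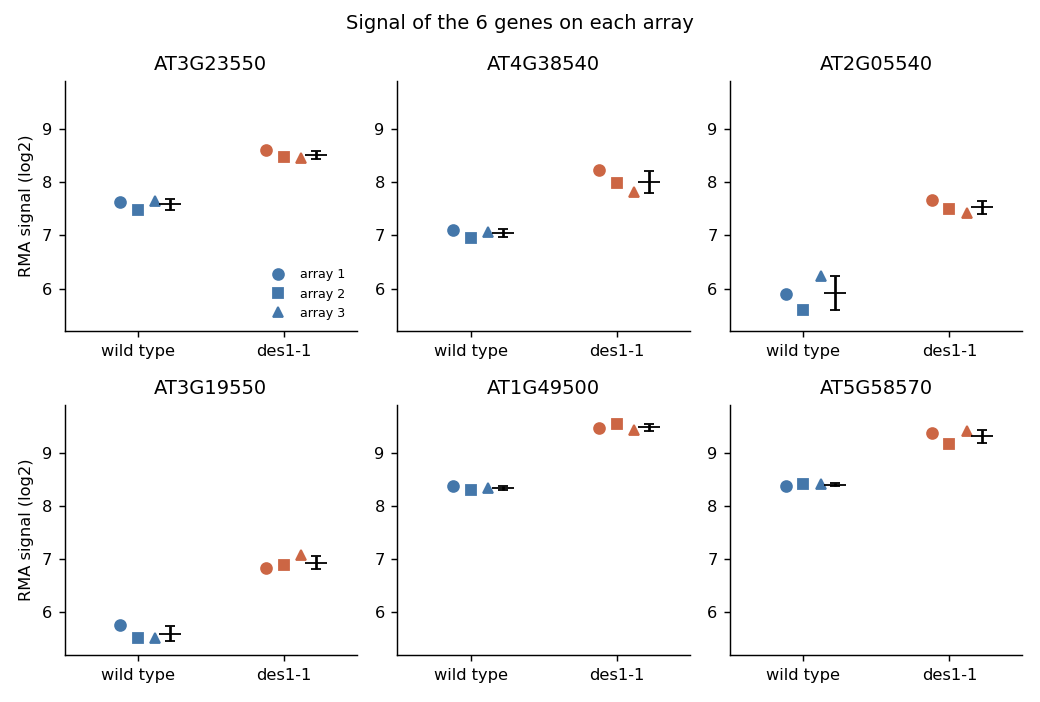
RMA signal (log2, vertical axis) of each of the 6 genes on the 3 wild-type (blue) and 3 des1-1 (orange) arrays, with circle, square and triangle for arrays 1, 2 and 3. Horizontal dashes with bars are the mean ± SD, and in each panel the lowest des1-1 array lies above the highest wild-type array, by 0.71 to 1.18.

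All 6 genes thus had des1-1 values above all wild-type values, a separation seen in this direction in 9.87% of all probe sets. They are also among the probe sets called higher in des1-1 in the limma fit, which were 0.33% of all. Both facts follow from how the genes were chosen. The median difference of the 6 was 1.05 on the log2 scale, against 0.00 over all 22746 probe sets. Among the 30 probe sets with 1 named gene that were called higher, ordered by size of difference, AT2G05540, AT3G19550 and AT1G49500 held places 5, 6 and 7. The linker histone gene HIS1-3 held place 8 with 1.00 ± 0.10 (SE). AT4G38540, AT3G23550 and AT5G58570 held places 9, 10 and 11, and the next gene outside the group was the anthocyanin glycosyltransferase gene UF3GT with 0.83 ± 0.11. Among all 22746 probe sets, named or not, the places were lower. They were 7, 11 and 13 for AT2G05540, AT3G19550 and AT1G49500, and 26, 27 and 29 for AT4G38540, AT3G23550 and AT5G58570.

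Wild-type signal placed these probe sets from the middle of the array upward. A percentile of signal describes where a probe set lies on the array and not the abundance of its transcript, since probe sets bind with different strength. The wild-type mean of AT3G19550 exceeded 46.8% of all probe sets and that of AT2G05540 51.4%, and in des1-1 these became 64.0% and 71.3%. For AT4G38540 and AT3G23550 the percentile went from 65.4 to 76.9 and from 72.0 to 82.3. For AT1G49500 and AT5G58570 it went from 80.7 to 90.4 and from 81.3 to 89.2. All 6 wild-type means lay above the lower quartile of every array, below which differences are most compressed.

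**Figure D2:**
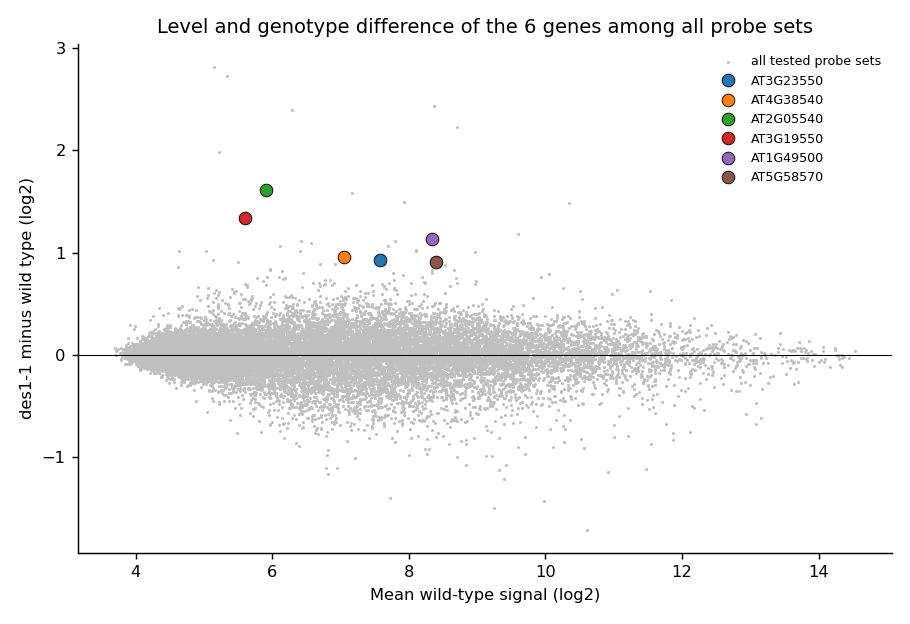
Difference between des1-1 and wild type (log2, vertical axis) against the mean wild-type signal (log2, horizontal axis) for all 22746 tested probe sets (grey), with the 6 genes in colour. The 6 lie between 0.91 and 1.61 on the vertical axis, over wild-type signals of 5.60 to 8.40.

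The place of each difference among probe sets of like brightness follows from the choice of the genes and is given as a description. Among the 3120 probe sets whose wild-type mean lay within 0.5 of that of AT2G05540, 1 differed upward by as much. The number was 4 of 3798 for AT3G19550, 3 of 2362 for AT1G49500 and 3 of 2836 for AT4G38540. It was 4 of 2766 for AT3G23550 and 6 of 2311 for AT5G58570.

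Within genotypes the 6 genes did not move as 1 block. Wild type 2, the array with the high ribosomal RNA control, held the lowest wild-type value of AT3G23550, AT4G38540, AT2G05540 and AT1G49500, 4 of the 6 genes, and was the lowest wild-type array in 35.6% of all probe sets. Without wild type 2 the differences of these 4 genes were 0.87, 0.92, 1.46 and 1.11, against 0.93, 0.96, 1.61 and 1.14 with it. Among the des1-1 arrays, array 1 was the highest for AT3G23550, AT4G38540 and AT2G05540, array 3 for AT3G19550 and AT5G58570, and array 2 for AT1G49500. Deviations from the genotype means over the 6 arrays correlated at -0.89 to 0.87 among the 15 pairs of genes, 9 of them above 0 and 6 below. The closest pair was AT2G05540 with AT3G23550 (Pearson r = 0.87) and the most opposed was AT1G49500 with AT5G58570 (r = -0.89). These coefficients describe 6 arrays that share their processing, and they carry few degrees of freedom.

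Leaving out single arrays changed no sign. The difference ran from 0.87 to 0.96 for AT3G23550, from 0.85 to 1.05 for AT4G38540 and from 1.46 to 1.78 for AT2G05540. It ran from 1.27 to 1.42 for AT3G19550, from 1.103 to 1.16 for AT1G49500 and from 0.865 to 0.98 for AT5G58570. AT2G05540 was the gene that moved most, with its lowest value without wild type 2 and its highest without wild type 3.

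**Figure D3:**
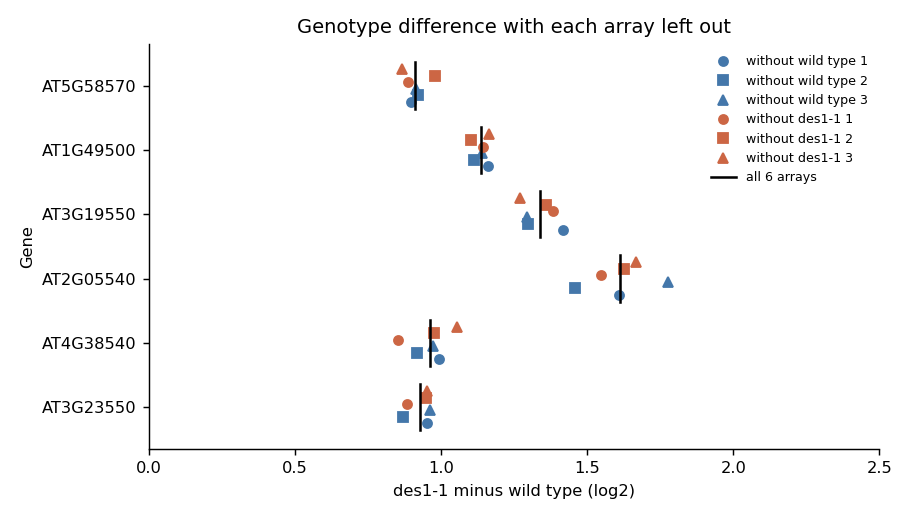
Difference between des1-1 and wild type (log2, horizontal axis) of each gene with all 6 arrays (black line) and with each array left out in turn (blue symbols for a wild-type array left out, orange for a des1-1 array). All values lie between 0.85 and 1.78. The lack of overlap between genotypes puts all of them to the right of 0.

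The other measured MATE carrier genes show how far the difference of AT3G23550 was shared by that part of its family. Of 57 loci on the family list 38 were measured, 37 besides AT3G23550. Unmeasured members could not be compared, and ALF5, the gene directly after AT3G23550 on the chromosome, was not measured either. The limma test called 0 of the 37 at an adjusted p under 0.05, against 0.387% of all probe sets. Before adjustment 7 of the 37 lay under 0.05 (5 higher, 2 lower), against 15.6% of all probe sets. The median difference of the 37 was 0.03, with 25 genes above and 12 below 0, and the median of all probe sets was 0.00. The highest of them was AT1G71140, which read 6.37, 6.34 and 6.63 in the wild type and 6.89, 7.02 and 6.73 in des1-1. Its difference was 0.43 ± 0.11 (SE, 95% interval 0.19 to 0.68, limma adjusted p = 0.138). The lowest was AT1G11670, with 6.36, 6.20 and 6.30 in the wild type and 5.87, 5.78 and 6.02 in des1-1. The difference of AT1G11670 was -0.40 ± 0.09 (SE, 95% interval -0.60 to -0.20, limma adjusted p = 0.119). The genotypes did not overlap in either gene. Over the 37 genes des1-1 lay wholly higher in 6 and wholly lower in 2, against 9.87% and 8.66% of all probe sets.

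AT5G17700, another carrier of the family, differed by 0.27 ± 0.07 (SE, limma adjusted p = 0.154). The 95% interval of AT3G23550, 0.74 to 1.12, lay above the interval of each other measured family member. That gap was not tested, since AT3G23550 was chosen for its size. Without des1-1 1, AT5G65380 became the only called member of the 37, at 0.48 ± 0.09 (SE, limma adjusted p = 0.0332, within 0.0332 to 0.640 over its alternatives) against 0.36 ± 0.10 (adjusted p = 0.167) with all arrays. In that setting 765 of all probe sets were called, 3.36%, so 1 of 37 is near the background. Of the 37 genes, 11 had a wild-type mean under 4.69, the lowest of the array lower quartiles, where a difference would be compressed.

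**Figure D4:**
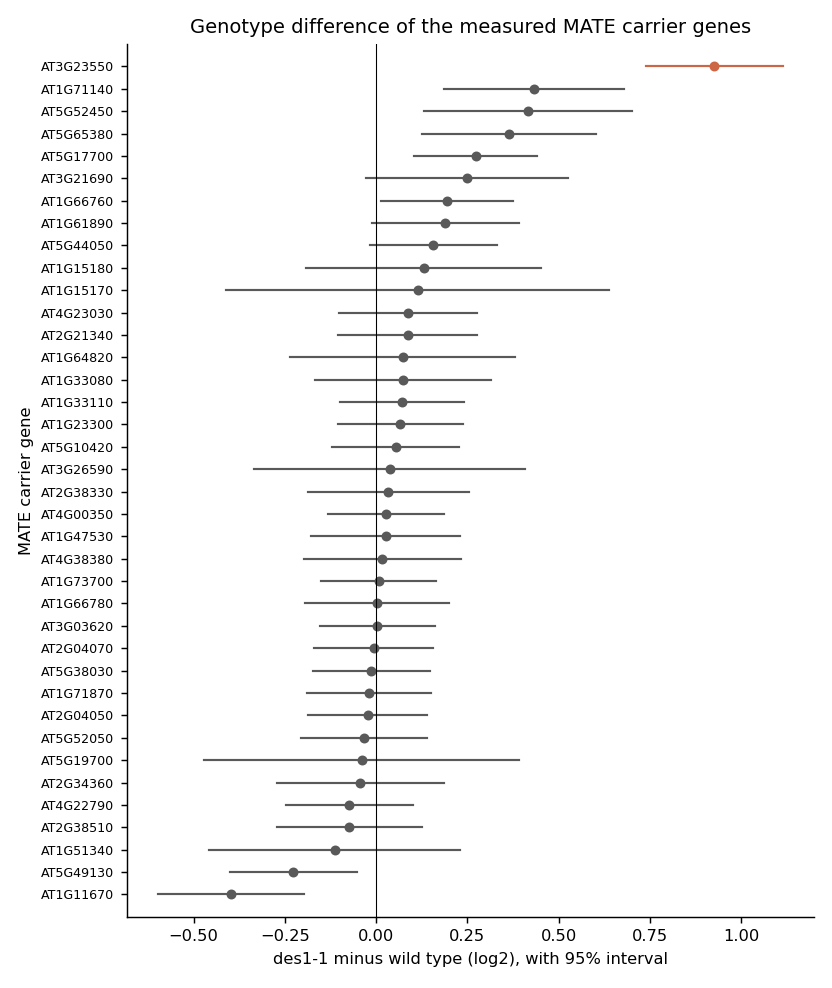
Difference between des1-1 and wild type (log2, horizontal axis) of the 38 measured MATE carrier genes, with points for the fitted difference and lines for its 95% interval. AT3G23550 (orange) stands at 0.93 and the other 37 (grey) between -0.40 and 0.43.

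Most relatives of the other genes had no probe set that carries them alone, and so count as unmeasured. Of the FAD monooxygenase list, 9 loci, AT5G05320 was the only gene measured besides AT4G38540. It read 6.09, 6.06 and 6.30 in the wild type and 6.39, 6.54 and 6.50 in des1-1, without overlap, and differed by 0.33 ± 0.09 (SE, limma adjusted p = 0.157). Of the glycine-rich run on chromosome 2, 7 loci, AT2G05580 and AT2G05530 were measured besides AT2G05540. AT2G05530, its direct neighbour, differed by 0.01 ± 0.09 and AT2G05580 by -0.26 ± 0.12 (SE, limma adjusted p = 0.983 and 0.346). A list of 14 genes for the synthesis of hydroxycinnamoyl agmatines, defence compounds that the AT3G23550 carrier is known to export, had 0 measured members.

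The 6 genes lie on all 5 chromosomes, AT3G19550 and AT3G23550 both on chromosome 3, and none is within 5 genes of another. Of the 60 annotated genes that stand among the 5 nearest on either side, 19 were measured. The limma test called 0 of the 19, against 0.387% of all probe sets, and 3 lay under 0.05 before adjustment, against 15.6% of all probe sets. These shares are near those of any probe sets. Their median difference was -0.01, within -0.59 to 0.34. Of the 12 direct neighbours 4 were measured, with differences of 0.01 for AT2G05530, -0.19 for the pseudogene AT2G05550, 0.01 for AT1G49490 and -0.02 for AT3G23540. AT2G05550 and AT1G49490 had dim probe sets (4.56 and 4.45 on average in the wild type), and 5 of the 19 measured neighbours had a mean under 4.69. AT3G19515, near AT3G19550, gave the lowest value among all 19 (-0.59 ± 0.21 SE, limma adjusted p = 0.233). It read 7.62, 7.48 and 7.40 in the wild type and 7.44, 6.82 and 6.46 in des1-1. Without des1-1 1, which lay within the wild-type range, it was called in limma at -0.86 ± 0.13 (adjusted p = 0.0186, within 0.0186 to 0.682 over its alternatives). In that setting 546 of all probe sets were called lower, 2.4%.

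**Figure D5:**
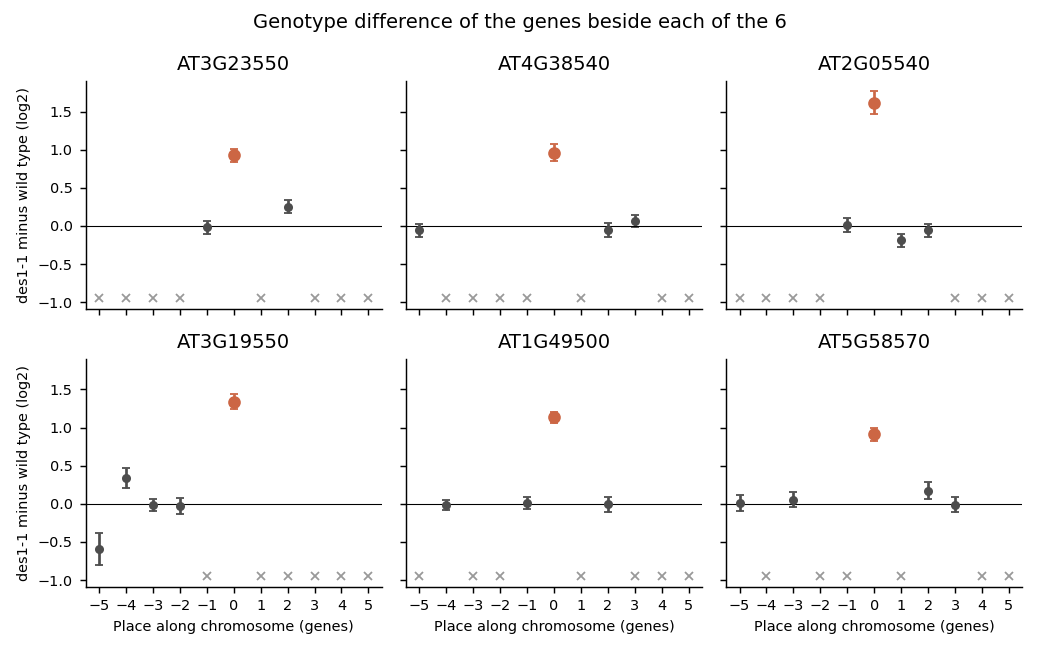
Difference between des1-1 and wild type (log2, vertical axis, bars are SE) of each of the 6 genes (orange, place 0) and of the measured genes among the 5 before and 5 after it along the chromosome (grey). Crosses mark the 41 neighbouring genes without a probe set that carries them alone, and the measured neighbours lie between -0.59 and 0.34.

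Annotated spans overlap at 4 of the 6 loci in the TAIR10.1 gene table, which gives no strand. AT3G19550, with a span of 1298 bp, contains the whole 579 bp span of AT3G19552. AT4G38540, 1907 bp, lies entirely within the long noncoding RNA gene AT4G38545. AT5G58570, the shortest at 593 bp, shares 183 bp with the farnesol kinase gene FOLK and 230 bp with the noncoding gene AT5G08840, and AT3G23550 shares 69 bp with AT3G23540. Among these overlapping genes AT3G23540 was the only one measured, at a difference of -0.02 ± 0.09 (SE). Which part of a locus its probes match was not analysed here, so signal from the unmeasured overlapping genes cannot be told apart from that of the named gene.

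For each gene, the 3 genes with the most similar profile over the 6 arrays were taken by Pearson r from 13507 other probe sets with 1 gene. The coefficient compares shape and not size, and it is carried largely by the genotype difference. AT5G58570 was most like HIS1-3 (r = 0.995), the putative beta-1,3-glucanase gene AT4G16260 (r = 0.994) and AT1G10140 (r = 0.991). The glucanase gene differed by 2.72 on the log2 scale, AT1G10140 by 0.48. AT1G49500 was most like AT1G30790 (r = 0.994), the plant defensin gene PDF1.2 (r = 0.993) and AT2G46600 (r = 0.990), which differed by 0.18, 2.23 and 0.62.

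AT3G19550 was most like AT2G46375 (r = 0.998), AT4G33040 (r = 0.997) and RING1 (r = 0.995), whose differences were 0.22, 0.47 and 0.30. AT2G05540 and AT3G23550 had AT1G67420 and AT3G50140 in common (r = 0.998 and 0.989 with the first, 0.991 and 0.992 with the second). Those genes differed by 0.23 and 0.12. The third place went to AT2G07751 for AT2G05540 (r = 0.989) and to AT2G46600 for AT3G23550 (r = 0.991). AT4G38540 was most like AT1G51520, AT4G02900 and AT1G01490 (r = 0.992, 0.991 and 0.985), with differences of 0.11, 0.17 and 0.35. Between 32 genes, for AT4G38540, and 88, for AT3G19550, had r above 0.95, so the order among them rests on small deviations of values deposited with 2 decimals. Of the 15 genes named as most alike, AT2G46375, AT3G50140, AT1G30790 and AT1G51520 had dim probe sets (4.19, 4.13, 4.18 and 4.33 on average in the wild type), and their differences are compressed.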

How the data were processed

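The authors deposited log2 signals per probe set. The submitters' processing notes name RMA and affy, and their versions are not given in the sources used here. RMA corrects background, equalises the distributions of arrays and combines probes into 1 value, which removes any shift common to all genes and compresses differences at low signal. Of 22810 probe sets, 64 controls were left out and 22746 tested. GEO's platform annotation gave 1 gene for 13513 of these, more than 1 for 503 and none here for 8730. Of the 13513, 13436 matched the TAIR10.1 gene table, used for names, gene order and spans. No gene is named from a probe set with several. A gene with several probe sets was represented by the brightest.

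The fit used limma 3.58.1 under R 4.3.3 (lmFit, eBayes, no term besides genotype, two-sided, Benjamini-Hochberg over all 22746). A gene was called at an adjusted p under 0.05. SE and 95% intervals come from this fit. It was also run on simulated data with independent noise for each value. That run cannot show how the fit behaves where probe sets share deviations of an array. Python 3.11.15, pandas 2.3.3 and matplotlib 3.10.9 served for tables and plots. Precision is limited by having 3 arrays per genotype.

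The 6 genes, the lists of relatives and the alternatives were chosen with earlier results of these data known. By rule, the text names all 6 genes, up to 3 relatives per list with the smallest unadjusted p, and any called. It also names measured direct neighbours and, for each gene, the 3 most similar profiles outside the 6. AT5G65380, AT3G19515, HIS1-3, UF3GT, the markers PRK and GH9C1 and the genes that overlap a member were added after their values were seen. The unmeasured gene ALF5 was also added outside the rule.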

Additional observations from a re-analysis of the deposited data

How the results depend on the processing

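The differences of the 6 genes stayed within 1 SD between replicates and above 0 in all 84 values over 14 alternatives each, from 0.85 to 1.78. With arrays left out, the lack of overlap between genotypes fixed the sign in advance. Without wild type 2 and des1-1 3 together they were 0.895 for AT3G23550, 1.01 for AT4G38540, 1.51 for AT2G05540, 1.23 for AT3G19550, 1.14 for AT1G49500 and 0.875 for AT5G58570. The calls that give the background moved far more: 88 in all (75 higher, 13 lower) became 20 to 765 with single arrays left out (19 to 219 higher, 0 to 546 lower, the highest counts without des1-1 1), 9 without wild type 2 and des1-1 3 (9 higher, 0 lower), 151 with an intensity trend (40 lower) and 183 with the replicate block (89 lower). Lower calls were 27 and 26 without the dimmest 25% and 50% of probe sets. Single left-out arrays gave 0 to 1 called MATE relatives and 0 to 1 called neighbours, the 1 in both cases without des1-1 1. Array deviations from the genotype means correlated at 0.17, -0.23 and 0.21 between arrays of the same replicate number. For wild type 1 and wild type 3, the des1-1 array of the same number gave the highest coefficient. For wild type 1 this was narrow, at 0.167 against 0.160 with des1-1 2. For wild type 2 the same number gave the lowest coefficient, so the numbers were not taken as pairs. The first principal component, the axis of largest variation between arrays, rose with replicate number in both genotypes. It was -19.6, -15.0 and -7.54 in the wild type and 1.36, 12.7 and 28.0 in des1-1. The source of this order was not tested. By construction, the block leaves the differences of the 6 genes as they are, and so does leaving out the dimmest 25% or 50% of probe sets. Signs turned with single arrays left out for AT2G05530 (-0.043 to 0.102), AT1G49490 (-0.027 to 0.053) and AT3G23540 (-0.095 to 0.025), which lay near 0. By construction, wild-type percentiles fell without the dimmest 25% and 50%, to 35.3 and 3.14 for AT2G05540, 29.1 and 0.0528 for AT3G19550, 74.3 and 61.5 for AT1G49500, 75.1 and 62.7 for AT5G58570, 53.9 and 30.8 for AT4G38540, and 62.8 and 44.1 for AT3G23550. The cause of the changed numbers of calls was not tested.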
